A study of Mus musculus with 12 samples.

Results

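The genes described here are the cyclin-dependent kinase (CDK) inhibitors and the D cyclins, 10 genes of the 24674 in the deposited table, chosen by symbol. They comprise the Cip/Kip inhibitors Cdkn1a, Cdkn1b and Cdkn1c, the INK4 inhibitors Cdkn2a, Cdkn2b, Cdkn2c and Cdkn2d, and the D cyclins Ccnd1, Ccnd2 and Ccnd3, and each was found as 1 row. RNA abundance was measured by bulk RNA sequencing of mouse prostate organoids grown from basal cells of Wildtype C57BL/6 animals. The 12 libraries fell into 4 groups of 3: Vehicle, UK5099 (a small-molecule inhibitor of the mitochondrial pyruvate carrier), Butyrate (a short-chain fatty acid that inhibits histone deacetylases) and UK5099 + Butyrate, hereafter the combination. The labels give no dose, duration, age or sex, and do not say whether the samples of a group came from separate animals or cultures, so the p-values measure the spread between these samples, which may be technical. An organoid culture holds epithelium without the stroma of the gland.

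CDK inhibitors and D cyclins meet at the same kinases. D cyclins bind CDK4 and CDK6 and start the phosphorylation of the retinoblastoma protein, which releases E2F factors and lets a cell enter S phase. INK4 proteins bind CDK4 and CDK6 directly and keep cyclin D away, whereas Cip/Kip proteins bind cyclin-CDK complexes, block CDK2, and also help D cyclins assemble with their kinases. Cdkn1a (p21) is a transcriptional target of p53, and histone deacetylase inhibitors are well known to raise it in many cultured cells.

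Promoter sequences are shown for 3 of the inhibitor loci whose RNA moved in different ways below: the Cdkn2a-Cdkn2b locus, Cdkn1a and Cdkn1b. RefSeq promoter entries (GRCm38.p6) matched 7 of the 10 genes with 11 start sites; no entry was matched for Cdkn1c, Ccnd1 or Ccnd2. Each run holds the 250 bases before the start, 5′ to 3′ on the strand of the gene, and capitals mark GC boxes (GGGCGG or its reverse complement). Cdkn2a has separate starts for its 2 products, the upstream start serving the alternative reading frame protein Arf and the downstream start serving p16.
Cdkn2a upstream start, chr4:89294620-89294869, - strand: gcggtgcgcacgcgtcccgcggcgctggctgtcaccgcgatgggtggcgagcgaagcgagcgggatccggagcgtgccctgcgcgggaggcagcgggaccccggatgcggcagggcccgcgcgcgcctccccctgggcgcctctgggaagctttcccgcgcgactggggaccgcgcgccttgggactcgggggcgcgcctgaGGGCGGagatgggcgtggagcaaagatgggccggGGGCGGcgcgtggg
Cdkn2a downstream start, chr4:89282193-89282442, - strand: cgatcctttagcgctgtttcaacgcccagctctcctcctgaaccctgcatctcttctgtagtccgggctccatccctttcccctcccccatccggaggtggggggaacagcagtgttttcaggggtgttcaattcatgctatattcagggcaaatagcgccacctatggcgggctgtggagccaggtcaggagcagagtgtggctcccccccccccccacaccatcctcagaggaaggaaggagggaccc
Cdkn2b, chr4:89311033-89311282, - strand: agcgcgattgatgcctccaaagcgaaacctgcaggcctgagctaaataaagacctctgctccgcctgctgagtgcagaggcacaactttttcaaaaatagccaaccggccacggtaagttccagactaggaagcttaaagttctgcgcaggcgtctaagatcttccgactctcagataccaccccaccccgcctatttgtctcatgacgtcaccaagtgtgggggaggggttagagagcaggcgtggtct
Cdkn1a downstream start, chr17:29093519-29093768, + strand: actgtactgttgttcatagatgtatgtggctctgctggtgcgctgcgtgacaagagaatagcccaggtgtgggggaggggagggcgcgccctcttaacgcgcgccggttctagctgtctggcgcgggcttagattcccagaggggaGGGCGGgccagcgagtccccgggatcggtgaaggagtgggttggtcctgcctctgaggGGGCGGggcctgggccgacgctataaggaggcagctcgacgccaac
Cdkn1b, chr6:134920151-134920400, + strand: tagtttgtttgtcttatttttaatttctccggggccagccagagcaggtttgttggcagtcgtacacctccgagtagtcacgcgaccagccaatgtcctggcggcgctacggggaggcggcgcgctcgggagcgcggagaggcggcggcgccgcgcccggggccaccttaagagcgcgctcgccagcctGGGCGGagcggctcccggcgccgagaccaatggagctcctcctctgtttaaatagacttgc
A GC box stood in 7 of the 11 member windows and in 32.7% of the 32851 windows of the same length over all genes, searched on both strands. Along the Cdkn2a-Cdkn2b locus, 2 GC boxes lay before the upstream Cdkn2a start, and the letters were not found before its downstream start or before Cdkn2b. Cdkn1a held 2 GC boxes at its downstream start and no GC box at its upstream start (chr17:29090729-29090978, sequence not shown). Cdkn1b held 1 GC box and 2 CCAAT boxes (CCAAT, in 33.8% of all windows). The upstream Cdkn2a window was the only one of the 11 with the E2F-type letters TTTCCCGC, present in 0.895% of all windows. CACCC (52.0% of all windows) was found 1 time at each Cdkn2a start and 2 times before Cdkn2b, and neither TATAAA (12.4%) nor the AP-1 letters TGACTCA (4.46%) occurred in any of the 11. These matches describe letters and were not tested as binding sites.

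Depth recovered from the smallest steps of the values ran from 33251860 to 43498943 fragments per library. Within groups the median coefficient of variation over genes was 3.47% to 4.41%, but the first UK5099 and the first combination samples stood apart from the other samples of their groups (chi-square per degree of freedom 6.91 to 7.38, against 1.99 to 2.80 for all other replicate pairs). Basal identity was checked with 6 markers, whose summed level was 6735 to 6860 TPM (abundance scaled by length and library total) in vehicle and 13717 to 14111 TPM with UK5099, and the sum of 6 luminal markers was 5147-5347 TPM in vehicle and 3048-3185 TPM with UK5099. Basal markers summed to 7042-7283 TPM after butyrate and 10134-10534 TPM in the combination, and luminal markers to 2863-2895 and 1791-2005 TPM. The basal sums are weighted by abundant keratins. With butyrate, mean Krt5 was 3152 TPM against 1848 TPM in vehicle and Trp63 was also higher, but Krt14, Krt15, Itga6 and Itgb4 were lower. In the combination Krt15 and Itgb4 were below vehicle and the other basal markers above it. Immune markers summed to 23.9-24.8 TPM in vehicle, 66.3-68.7 TPM with butyrate and 86.4-97.2 TPM with the combination, nearly all from Cd68, while the leukocyte marker Ptprc reached at most 0.00425 TPM in vehicle; 3 of the 7 markers on that list were not found. Of 8 fibroblast markers, whose sum was 2.72-2.75 TPM in vehicle and 10.8-11.2 TPM with butyrate, Dcn made up 9.51 TPM in the butyrate mean and Col1a1 0.713 TPM. The part of these markers in the results below was not tested, and in bulk RNA fewer cells of a type and less RNA per cell cannot be told apart. Over 13345 genes averaging 1 TPM or more, the median log2 coefficient against vehicle stood at −0.12 for UK5099, −0.30 for butyrate and, in the combination, −0.41. A member's change is therefore given on the deposited scale and, where its direction depends on it, after median-of-ratios scaling, which sets those medians to within 0.01 of 0.

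All 10 members were tested with every other gene by limma on log2(TPM + 1), which understates changes of genes near or below 1 TPM, and a gene passed at an adjusted p under 0.01. UK5099 changed 9 of the 10 members against vehicle, where 33.0% of all genes and 50.4% of genes averaging 1 TPM or more passed. Of the 9, 2 were higher and 7 lower, where 8.24% of all genes were higher and 24.7% lower. Butyrate changed 8 members (45.6% of all genes, 69.2% of the more abundant ones), with 1 higher and 7 lower (9.70% and 35.9% of all genes). The combination changed 9 (51.0% and 75.4%), with 2 higher and 7 lower (10.1% and 40.8%). The lower calls outnumber the higher ones among all genes too, and the split depends on the scaling. After median-of-ratios scaling, 2 members were higher and 6 lower with UK5099, 4 and 4 with butyrate and 4 and 4 in the combination, where 13.6% and 13.6%, 20.2% and 18.2%, and 23.4% and 20.6% of all genes were higher and lower. The samples of 9, 10 and 10 members did not overlap vehicle in these 3 comparisons, nor did those of 49.2%, 60.1% and 64.7% of all genes. The limit of 1 on the log2 coefficient was passed by 0 members with UK5099 (1.84% of all genes), by 2 with butyrate (3.54%) and by 2 with the combination (6.42%). Without Vehicle replicate 3, 6 members passed with UK5099 and 1 exceeded the limit of 1 with the combination, and 3 exceeded it with butyrate without Butyrate replicate 2. Without the first UK5099 and first combination samples, the counts that passed were 8, 8 and 8. All treated groups are compared with the same vehicle samples, so these counts are not independent.

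**Figure D1:**
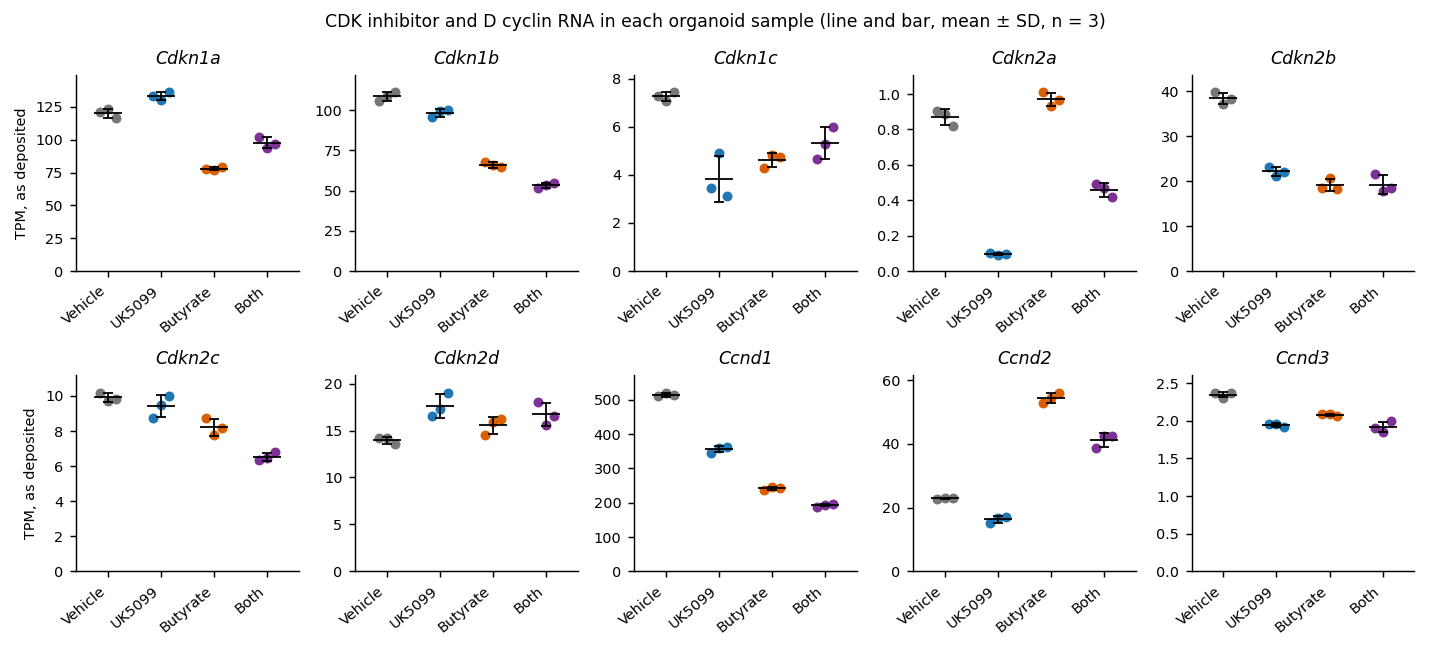
RNA abundance of the 10 members in each of the 12 samples, in TPM as deposited on axes that start at 0, with points for samples and a line with bars for the mean ± SD of 3 samples ("Both" is the combination). Cdkn2a is at 0.0905-0.1003 TPM in the UK5099 samples and at 0.819 TPM or more in vehicle, and Ccnd2 is above 38 TPM in all 6 samples with butyrate and below 24 TPM in the other 6.

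The Cip/Kip inhibitors went different ways with UK5099, and on the deposited scale all 3 were lower with butyrate. Cdkn1a was the most abundant CDK inhibitor in every group, at 121, 123 and 116 TPM in the vehicle samples and 134, 130 and 136 TPM in the UK5099 samples. It was lower in the butyrate samples, at 77.57, 76.98 and 79.64 TPM, and intermediate in the combination, at 102.4, 94.0 and 97.2 TPM, and no 2 groups overlapped. Relative to vehicle, Cdkn1a rose by 0.15 ± 0.03 (log2 coefficient ± SE, adjusted p = 0.00563) with UK5099, and it passed on all 6 scalings tried, with coefficients from 0.15 to 0.30. That small rise missed the limit when any of 4 samples was left out, with adjusted p = 0.0193 without UK5099 replicate 1, 0.0232 without UK5099 replicate 3, 0.0159 without Vehicle replicate 1 and 0.0229 without Vehicle replicate 3. Butyrate lowered Cdkn1a, with a coefficient of −0.62 ± 0.03 (adjusted p = 1.94e-07), and on all 6 scalings it stayed below vehicle, from −0.62 to −0.26. When UK5099 was added to butyrate, Cdkn1a rose by 0.32 (adjusted p = 6.84e-05), and by 0.32 to 0.48 over the scalings. Against vehicle the combination gave −0.29 ± 0.03 (adjusted p = 3.22e-05) on the deposited scale but 0.21 after median-of-ratios scaling, so its direction was set by the scaling. The Cdkn1a span overlaps an antisense gene, 1700023B13Rik, listed at 3.95 TPM in vehicle and 7.91 TPM with UK5099. That gene held 27.3 to 89.1 fragments per sample, against 6464 to 11012 for Cdkn1a, and its part in the Cdkn1a values was not tested.

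Cdkn1b (p27), an inhibitor of CDK2 whose protein is degraded as cells enter S phase, was lowered in a graded order on the deposited scale. Its level was 106, 109 and 111 TPM in vehicle, 95.6, 99.7 and 100.1 TPM with UK5099, 67.8, 65.6 and 64.6 TPM with butyrate and 51.4, 53.3 and 55.0 TPM with the combination. Each group lay wholly below the one before. With butyrate the coefficient was −0.71 ± 0.03 (adjusted p = 4.43e-08) and with the combination −1.01 ± 0.03 (adjusted p = 2.47e-09), and both were negative and passed on all 6 scalings. The UK5099 coefficient of −0.14 ± 0.03 (adjusted p = 0.00498) did not hold: it was 0.01 after median-of-ratios scaling, and the adjusted p was 0.0203 without UK5099 replicate 1, 0.0113 without UK5099 replicate 2, 0.0166 without Vehicle replicate 2 and 0.0211 without Vehicle replicate 3. UK5099 added to butyrate lowered Cdkn1b by a further coefficient of −0.31 (adjusted p = 5.52e-05), the opposite direction to Cdkn1a in that comparison.

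Cdkn1c (p57), an imprinted inhibitor, was the scarcest of the family. It stood at 7.29, 7.07 and 7.42 TPM in vehicle, 3.46, 4.91 and 3.10 TPM with UK5099, 4.28, 4.83 and 4.74 TPM with butyrate and 4.68, 5.27 and 5.99 TPM with the combination. All 9 treated samples were below all 3 vehicle samples. The UK5099 coefficient was −0.79 ± 0.13 (adjusted p = 0.000644) and passed on all 6 scalings. The butyrate coefficient was −0.56 ± 0.13 (adjusted p = 0.00386), but it passed on 2 of the 6 scalings, and the adjusted p was 0.0109 to 0.0169 when Butyrate replicate 1 or 3 or any of the 3 vehicle samples was left out. For the combination the value was −0.39 ± 0.13 (adjusted p = 0.0225), which did not pass, and it was 0.04 after median-of-ratios scaling. Fragment numbers were low, from 69.5 to 170 per sample, and 6 of the 12 values were not whole numbers of fragments (to within 0.02). An antisense gene, Gm44732, overlaps Cdkn1c and was listed at 0.000289 TPM in vehicle and 0.875 TPM with UK5099, and its part in the lower Cdkn1c values was not tested.

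Cdkn2a, an INK4 inhibitor, had the largest fold in mean TPM of any member between UK5099 and vehicle. The gene encodes p16 and, in another reading frame, Arf, and a value per gene cannot separate these products. It lies on chromosome 4 (89192708-89212891, in the table's own coordinates, for which the submitters' notes name GRCm39), 11645 bp from the neighbouring Cdkn2b. Its level was 0.905, 0.888 and 0.819 TPM in vehicle and 0.1003, 0.0905 and 0.0958 TPM with UK5099. These TPM values are small because the table divides by the genomic span of 20183 bp. In fragments, the vehicle samples held 121, 115 and 138, the UK5099 samples 15, 14 and 16, the butyrate samples 190, 162 and 171 and the combination samples 110, 94 and 88, all of them whole. The groups with and without UK5099 did not overlap. Mean TPM was 9.12-fold lower with UK5099 than in vehicle. The log2(TPM + 1) coefficient was −0.77 ± 0.02 (adjusted p = 2.08e-08), slightly smaller in size than that of Cdkn1c, and with voom on the recovered fragments, which adds no such floor, it was −2.99 ± 0.23 (adjusted p = 1.99e-10). Butyrate left Cdkn2a at 1.01, 0.932 and 0.968 TPM, with a coefficient of 0.07 ± 0.02 (adjusted p = 0.0286) that did not pass, though it was positive and passed on the other 5 scalings, reaching 0.48. With the combination, Cdkn2a fell to 0.494, 0.469 and 0.416 TPM (−0.36 ± 0.02, adjusted p = 6.73e-07), negative on all 6 scalings, with voom at −0.45 (adjusted p = 0.0327). Compared with UK5099 alone, the combination was higher by 0.41 (adjusted p = 4.59e-07), or by 2.55 with voom.

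Cdkn2b (p15), which TGF-β signalling is known to induce, fell like its neighbour with UK5099 and with the combination, but unlike it with butyrate. Its level was 39.7, 37.1 and 38.3 TPM in vehicle, 23.2, 21.1 and 22.1 TPM with UK5099, 18.4, 20.7 and 18.2 TPM with butyrate and 21.6, 17.7 and 18.4 TPM with the combination. All treated samples were below all vehicle samples. Coefficients against vehicle were −0.77 ± 0.07 with UK5099 (adjusted p = 2.54e-05), −0.97 ± 0.07 with butyrate (adjusted p = 2.10e-06) and −0.97 ± 0.07 with the combination (adjusted p = 1.64e-06), and each was negative and passed on all 6 scalings. No pair of treated groups differed by the test, with adjusted p from 0.0486 to 0.974, though Cdkn2b passed between the combination and UK5099 (−0.28, adjusted p = 0.00403) when the first combination sample was left out. Within a sample, the log2 ratio of Cdkn2a to Cdkn2b per exonic base was −3.13 ± 0.08 in vehicle and −5.52 ± 0.01 with UK5099, against −1.96 ± 0.15 after butyrate and −3.05 ± 0.13 in the combination (mean ± SD, n = 3). The UK5099 ratio was thus 0.190 of the vehicle ratio and the butyrate ratio 2.24-fold higher, without any scaling between samples. Neither difference can reach below p = 0.10 in an exact permutation test of 3 against 3.

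With UK5099, the remaining INK4 inhibitors changed less than Cdkn2a and Cdkn2b. Cdkn2c (p18) was at 10.2, 9.73 and 9.83 TPM in vehicle, 8.74, 9.51 and 9.99 TPM with UK5099, 8.73, 7.76 and 8.18 TPM with butyrate and 6.33, 6.49 and 6.78 TPM with the combination. The UK5099 and vehicle samples overlapped (−0.07 ± 0.05, adjusted p = 0.331), the only member and comparison with vehicle in which groups did so. Butyrate gave −0.24 ± 0.05 (adjusted p = 0.00218) on the deposited scale but 0.08 after median-of-ratios scaling, and without Vehicle replicate 1 the adjusted p was 0.0103. The combination gave −0.54 ± 0.05 (adjusted p = 7.01e-06) and was negative on all 6 scalings but passed on 3 of them. Cdkn2d (p19) was the INK4 member that rose on the deposited scale. It was at 14.2, 14.2 and 13.6 TPM in vehicle, 16.6, 17.3 and 19.0 TPM with UK5099, 14.5, 15.96 and 16.2 TPM with butyrate and 18.0, 15.5 and 16.6 TPM with the combination, so that every treated sample was above every vehicle sample. The rise was 0.31 ± 0.06 with UK5099 (adjusted p = 0.00339) and 0.24 ± 0.06 with the combination (adjusted p = 0.00971). Both were positive and passed on all 6 scalings, at 0.31 to 0.49 with UK5099 and 0.24 to 0.73 with the combination. The butyrate value of 0.14 ± 0.06 did not pass (adjusted p = 0.0975) on the deposited scale. It was positive and passed on the other 5, at 0.25 to 0.51. Leaving out 1 sample ended the UK5099 call in 4 cases (UK5099 replicate 3 and each vehicle sample, adjusted p = 0.01004 to 0.0147), and it ended the combination call in 8 cases, with an adjusted p up to 0.0371 without the first combination sample.

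Of the members, Ccnd1 and Ccnd2 had the largest log2(TPM + 1) coefficients against vehicle on the deposited scale, although the fold in mean TPM was larger for Cdkn2a with UK5099. Ccnd1 (cyclin D1) was the most abundant member, at 510, 521 and 513 TPM in vehicle, 345, 360.1 and 362 TPM with UK5099, 237, 245 and 242 TPM with butyrate and 189, 193 and 196 TPM with the combination. Every group was separate from the others, in the same descending order as Cdkn1b. Coefficients were −0.53 ± 0.02 (adjusted p = 1.14e-07) with UK5099, −1.09 ± 0.02 (adjusted p = 5.93e-10) with butyrate and −1.41 ± 0.02 (adjusted p = 7.25e-11) with the combination. All were negative and passed on all 6 scalings, but the size depended on the scaling: after median-of-ratios scaling they were −0.38, −0.73 and −0.91, so that none passed the limit of 1. UK5099 added to butyrate lowered Ccnd1 further, with a coefficient of −0.33 (adjusted p = 5.11e-06).

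Ccnd2 (cyclin D2) moved against its paralogue Ccnd1 with butyrate and with the combination, but fell like it with UK5099. It was at 22.8, 23.1 and 22.9 TPM in vehicle, 15.1, 16.8 and 17.0 TPM with UK5099, 52.8, 54.4 and 56.1 TPM with butyrate and 38.7, 42.6 and 42.4 TPM with the combination. No groups overlapped. Butyrate raised Ccnd2 by 1.21 ± 0.05 (adjusted p = 2.71e-08), a 2.37-fold higher mean TPM and on the deposited scale the only member raised beyond the limit of 1 against vehicle. The combination gave 0.82 ± 0.05 (adjusted p = 2.30e-07), while UK5099 alone lowered Ccnd2, with a coefficient of −0.47 ± 0.05 (adjusted p = 3.84e-05). Each of these directions held on all 6 scalings, with butyrate between 1.21 and 1.60, UK5099 between −0.48 and −0.32 and the combination between 0.82 and 1.31, beyond the limit of 1 on 4 of the 6. Adding UK5099 to butyrate lowered Ccnd2 again (−0.39, adjusted p = 0.000192), and butyrate exceeded UK5099 by 1.68 (adjusted p = 9.03e-09). A non-coding gene within the Ccnd2 span, 9330179D12Rik, had at most 7 fragments in a sample.

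Ccnd3 (cyclin D3) had the smallest coefficients against vehicle among the D cyclins. Its TPM values are small because the table divides by a genomic span of 94641 bp, and the pseudocount of 1 shrinks coefficients at such levels. It was at 2.37, 2.30 and 2.37 TPM in vehicle, 1.96, 1.95 and 1.92 TPM with UK5099, 2.10, 2.09 and 2.07 TPM with butyrate and 1.91, 1.86 and 1.99 TPM with the combination, and all treated samples were below vehicle. The UK5099 coefficient of −0.19 ± 0.02 (adjusted p = 1.80e-05) was negative and passed on all 6 scalings. Values for butyrate (−0.12 ± 0.02, adjusted p = 0.000203) and the combination (−0.20 ± 0.02, adjusted p = 3.81e-06) turned positive after median-of-ratios scaling, at 0.13 and 0.15. Its neighbour Bysl overlaps it by 361 bp on the opposite strand and was at 8.70 TPM in vehicle and 4.99 TPM with butyrate.

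**Figure D2:**
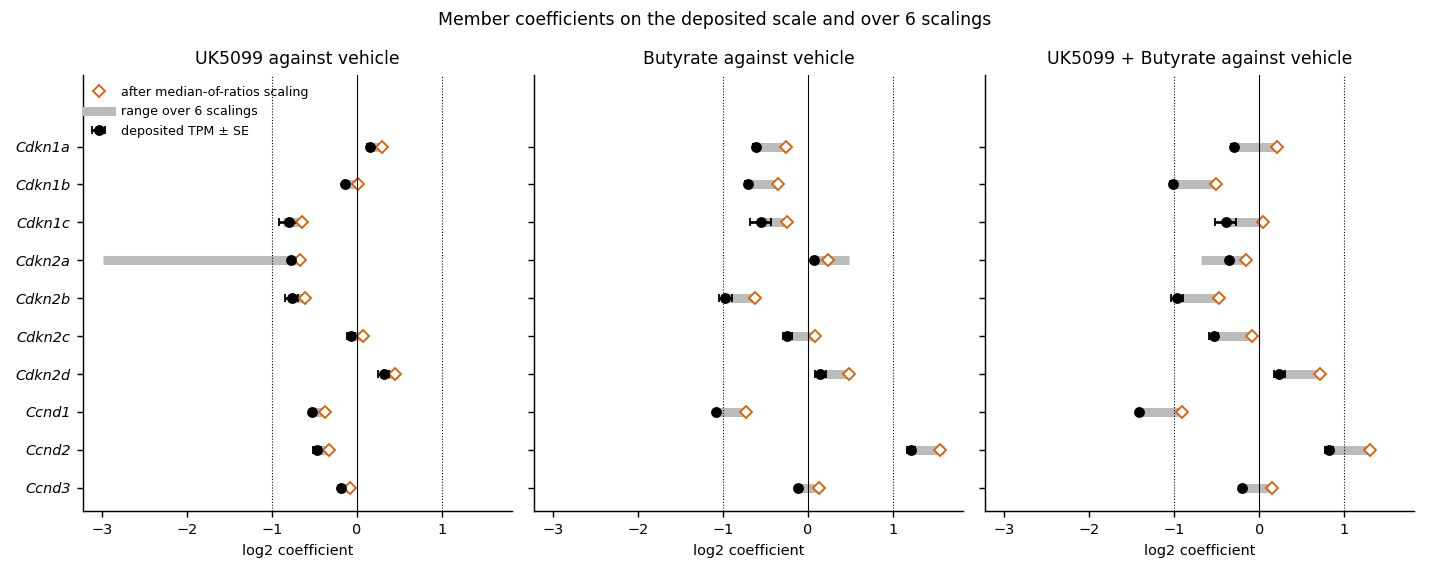
Log2 coefficient (horizontal axis) of each member (vertical axis) for UK5099, butyrate and the combination against vehicle, with black points and bars for the deposited TPM ± SE, open diamonds for median-of-ratios scaling and grey bars for the range over 6 scalings (dotted lines at −1 and 1). The direction was the same on all 6 scalings for 8 of 10 members with UK5099, for 8 under butyrate and for 7 in the combination, and the longest grey bar is that of Cdkn2a with UK5099, which reaches −2.99.

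The make-up of D cyclin RNA was compared within each sample, which needs no scaling between samples. These ratios were chosen after the values were seen, and they use fragments per exonic base, since the gene spans differ. Ccnd1 made up 92.2%, 92.4% and 92.3% of D cyclin RNA in the vehicle samples and 91.9%, 91.7% and 91.7% in the UK5099 samples, but 74.3%, 74.4% and 73.7% with butyrate and 75.3%, 74.2% and 74.3% with the combination. The Ccnd2 share was 5.57% ± 0.01 (SD, n = 3) in vehicle, 22.6% ± 0.40 with butyrate and 21.6% ± 0.67 in the combination, and at 5.68% ± 0.21 the UK5099 samples overlapped vehicle. The Ccnd2 to Ccnd1 ratio was 5.05-fold higher with butyrate than in vehicle. The Ccnd3 share was 2.14% ± 0.06 in vehicle and higher in the treated groups, at 2.55% ± 0.09 with UK5099, 3.25% ± 0.07 after butyrate and 3.78% ± 0.13 in the combination. The smallest two-sided p that 3 against 3 samples allow in an exact permutation test, 0.10, was reached in each comparison with vehicle whose samples did not overlap.

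Inhibitor RNA was set against D cyclin RNA in the same way. The log2 ratio of the 7 inhibitors to the 3 D cyclins was −0.82, −0.86 and −0.86 in the vehicle samples and −0.38, −0.46 and −0.42 in the UK5099 samples. With butyrate it was −0.68, −0.71 and −0.71, and with the combination −0.16, −0.33 and −0.30. All treated samples were above vehicle, and in linear terms the mean ratio was 1.34-fold higher with UK5099 and 1.11-fold higher with butyrate, and in the combination 1.498-fold higher. With UK5099, the Cip/Kip ratio to D cyclins was 1.5-fold that of vehicle, while the INK4 ratio was 0.976-fold that of vehicle and overlapped it. The ratio holds the fall of its denominator, since mean Ccnd1 per exonic base was 615 TPM in vehicle and 432 TPM with UK5099, whereas Cdkn1a was at 186 and 209 TPM and Cdkn1b at 68.7 and 63.3 TPM. Cdkn1a made up 50.2% ± 0.90 (SD, n = 3) of CDK inhibitor RNA in vehicle and 50.4% ± 0.88 with butyrate, against 59.5% ± 0.45 with UK5099 and 58.9% ± 0.11 in the combination, so that both groups with UK5099 stood above both groups without it. The Cdkn2b share was 19.9% ± 0.68 in vehicle, against 12.3% ± 0.55 with UK5099 and 15.3% ± 1.1 with butyrate.

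**Figure D3:**
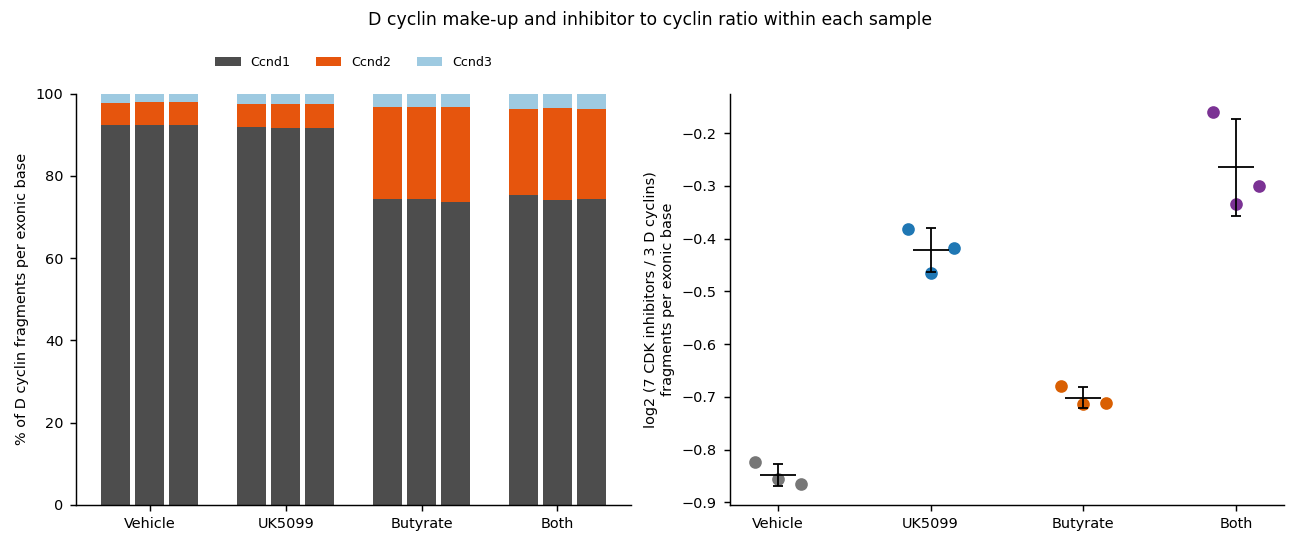
Left, percent of D cyclin fragments per exonic base (vertical axis) from Ccnd1, Ccnd2 and Ccnd3 in each of the 12 samples, grouped by treatment; right, log2 ratio of the 7 CDK inhibitors to the 3 D cyclins in each sample, with points for samples and a line with bars for the mean ± SD of 3 samples. The Ccnd2 share is near 5.6% without butyrate and above 20% with it, and the lowest ratio is that of vehicle at −0.85 and the highest that of the combination at −0.26.

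Per exonic base, the order of the members in vehicle was Ccnd1 at 615 ± 7.4 TPM (SD, n = 3), Cdkn1a at 186 ± 4.6, Cdkn2b at 73.8 ± 2.4, Cdkn1b at 68.7 ± 1.9, Ccnd2 at 37.1 ± 0.36, Cdkn2d at 15.01 ± 0.33, Ccnd3 at 14.3 ± 0.25, Cdkn2c at 13.1 ± 0.29, Cdkn2a at 8.45 ± 0.40 and Cdkn1c at 5.44 ± 0.15. With butyrate Ccnd2 reached 95.7 ± 2.6 TPM on this scale and stood above Cdkn1b at 45.4 ± 1.2 and Cdkn2b at 39.8 ± 2.9, the reverse of the order in vehicle. Cdkn2a fell to 0.941 ± 0.054 TPM with UK5099, the lowest level of any member in any group.

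The combination was compared with the sum of the coefficients of the treatments given alone. An interaction passed for 4 of the 10 members, all with a positive term, against 13.4% of all genes (7.01% positive and 6.38% negative), and 0 members passed beyond a coefficient of 1 (1.01% of all genes). For Cdkn2b, the sum was −1.74 and the combination −0.97, an interaction of 0.77 ± 0.11 (adjusted p = 0.000707). For Cdkn1c, the sum was −1.35 and the combination −0.39 (interaction 0.96 ± 0.18, adjusted p = 0.00429), but the adjusted p rose to as much as 0.0134 and missed the limit when any of 9 samples was left out, among them Butyrate replicate 1 and UK5099 replicate 1. For Cdkn2a, the interaction was 0.34 ± 0.03 (adjusted p = 0.000126), or 2.06 with voom (adjusted p = 1.28e-06). Ccnd1 fell short of its sum by 0.20 ± 0.03 (adjusted p = 0.00152). These 4 terms were positive and passed on all 6 scalings. Cdkn1b was below its sum (−0.85 against −1.01), with an interaction of −0.17 ± 0.04 that did not pass (adjusted p = 0.0244), and for Ccnd2 the sum of 0.74 and the combination of 0.82 did not differ by the test (interaction 0.08 ± 0.07, adjusted p = 0.534).

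**Figure D4:**
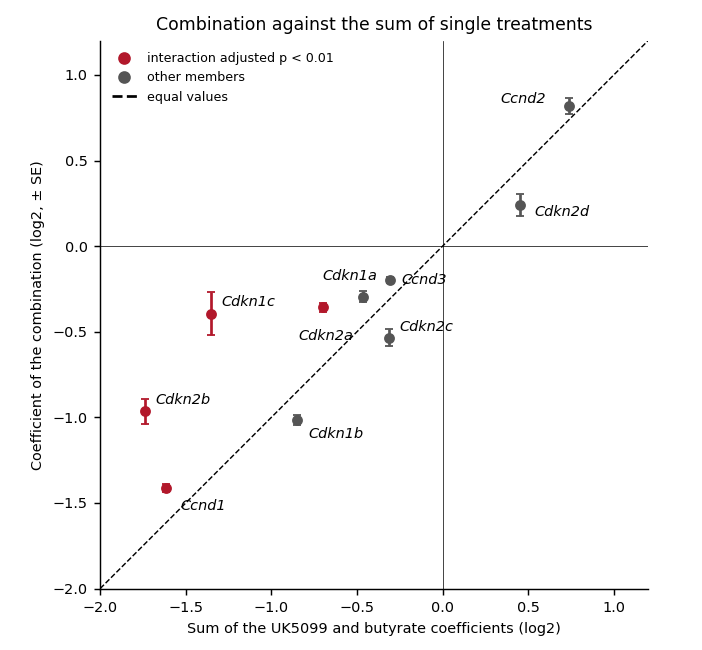
Log2 coefficient of the combination against vehicle (vertical axis, ± SE) over the sum of the UK5099 and butyrate coefficients (horizontal axis) for the 10 members, with a dashed line where both are equal and red points where the interaction had an adjusted p under 0.01. The 4 red points, Cdkn1c, Cdkn2a, Cdkn2b and Ccnd1, lie above the line, by 0.20 to 0.96.

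Between treated groups, 7 members passed for the combination against butyrate (27.5% of all genes, 5.52% higher and 22.0% lower), with Cdkn1a higher and Cdkn1b, Cdkn2a, Cdkn2c, Ccnd1, Ccnd2 and Ccnd3 lower. Ccnd3 in that comparison was at −0.08 and turned to 0.02 after median-of-ratios scaling. For the combination against UK5099, 6 members passed (43.0% of all genes, 7.62% higher and 35.3% lower), with Cdkn2a and Ccnd2 higher and Cdkn1a, Cdkn1b, Cdkn2c and Ccnd1 lower. Butyrate against UK5099 also gave 6 (37.5% of all genes, 9.97% higher and 27.5% lower), with Cdkn2a, Ccnd2 and Ccnd3 higher and Cdkn1a, Cdkn1b and Ccnd1 lower, although Ccnd3 passed only narrowly (0.07, adjusted p = 0.00999) and lost the call in 10 of the 12 fits that left out 1 sample. After median-of-ratios scaling, members were 1 higher and 4 lower in the first of these comparisons (10.4% and 9.28% of all genes), 5 higher and 2 lower in the second (19.1% and 16.3%) and 3 higher and 3 lower in the third (18.1% and 15.6%). Beyond a coefficient of 1, 0, 1 and 1 members passed, against 0.908%, 1.97% and 1.86% of all genes, and the member was Ccnd2 in both cases. These comparisons share their groups with each other and with those against vehicle.

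Partners of the members were read from lists of the wider pathway. The lower calls in the lists stand beside 24.7%, 35.9% and 40.8% of all genes on the deposited scale, and 13.6%, 18.2% and 20.6% after median-of-ratios scaling. The higher calls stand beside 8.24%, 9.70% and 10.1%, and 13.6%, 20.2% and 23.4% after that scaling. Most list genes averaged 1 TPM or more, a range where 50.4%, 69.2% and 75.4% of genes passed in either direction on the deposited scale. The list of G1 and S phase kinases holds Cdk4, Cdk6, Cdk2, Cdk7 and Cdk1, though Cdk7 and Cdk1 are not particular to those phases. All 5 fell in each comparison with vehicle on the deposited scale. Their medians were −0.23, −0.59 and −0.88 for UK5099, butyrate and the combination, beside −0.12, −0.30 and −0.41 over genes averaging 1 TPM or more. Cdk4, a partner of D cyclins, had coefficients of −0.39, −0.67 and −0.88, and stayed negative and below the limit of adjusted p after median-of-ratios scaling (−0.23, −0.32 and −0.38). Cdk6, the other partner, gave −0.19, −0.59 and −0.67, and Cdk2, the kinase that Cip/Kip proteins inhibit, gave −0.23, −0.75 and −0.94. After median-of-ratios scaling 2, 5 and 5 of the 5 kinases were lower, and the UK5099 values of Cdk6 (−0.05), Cdk2 (−0.08) and Cdk7 (−0.07) no longer passed. Those still lower with UK5099 were Cdk4 and Cdk1 (−0.30). Of 6 other cyclins, 4, 4 and 5 fell and none rose, and after median-of-ratios scaling 2, 1 and 3 were lower. Ccne1, which activates CDK2, was at −0.37, −0.54 and −0.55, Ccne2 at −0.28, −0.26 and −0.51, of which the first 2 did not pass, and Ccna2 at −1.005 with the combination. After median-of-ratios scaling Ccne1 was at −0.23, −0.24 and −0.12 and Ccne2 at −0.16, 0.01 and −0.13, and none of these passed. On that scaling Ccna2 was at −0.50 with the combination, which passed. Of 13 RB family and E2F genes, 9, 12 and 12 fell, and 1 rose with butyrate (Tfdp2 by 0.10, named after its value was seen). After median-of-ratios scaling 7, 5 and 7 of the 13 were lower and 1, 2 and 2 higher. Rb1, the substrate of cyclin D kinases, was at 0.08, −0.11 and −0.04, of which only the butyrate value passed, and it was positive in all comparisons after median-of-ratios scaling (0.15, 0.07 and 0.22). E2f1 fell to a coefficient of −0.49, −0.60 and −0.76, and E2f8 by −1.04 with the combination.

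Turnover genes, whose products mark CDK inhibitors or D cyclins for degradation or assist in it, fell in 6, 9 and 9 of 9 cases on the deposited scale and in 3, 2 and 6 after median-of-ratios scaling, where none rose and the medians were −0.08, −0.08 and −0.17. Skp2, the ubiquitin ligase subunit that recognises p27, was at −0.20, −0.33 and −0.45, its cofactor Cks1b at −1.14 with the combination, and Fbxo31, which targets cyclin D1, at −1.08 with the combination. On the deposited scale, Cdkn1b RNA and Skp2 RNA were thus both below vehicle with butyrate and with the combination. After median-of-ratios scaling Skp2 was at −0.15 with butyrate, which did not pass (adjusted p = 0.0181). It was at −0.22 with the combination, which passed (adjusted p = 0.00177). All 14 proliferation markers fell with butyrate and with the combination and 13 fell with UK5099, with medians of −0.47, −0.53 and −0.91. After median-of-ratios scaling 13, 8 and 13 of the 14 fell, and Mki67 with butyrate turned from −0.31 to 0.04. The 4 markers most changed were Mcm2, Plk1, Bub1 and Mcm6, at −1.19, −1.17, −1.15 and −1.07 with the combination.

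The p53 response genes did not move together. Of 18, 6 rose and 9 fell with UK5099, 5 rose and 8 fell with butyrate, and 6 rose and 11 fell with the combination. Among all genes 8.24%, 9.70% and 10.1% rose and 24.7%, 35.9% and 40.8% fell. Of the 18, 16 averaged 1 TPM or more, a range where 50.4%, 69.2% and 75.4% of genes passed in either direction. After median-of-ratios scaling 6 rose and 7 fell with UK5099, 10 rose and 7 fell with butyrate, and 8 rose and 9 fell in the combination. The balance with butyrate thus turned. On that scaling 13.6%, 20.2% and 23.4% of all genes rose and 13.6%, 18.2% and 20.6% fell. Perp, a desmosomal p53 target, rose by 1.17 ± 0.04 with UK5099 and 1.32 ± 0.04 with the combination, whereas Bbc3, which encodes the apoptotic protein PUMA, fell to a coefficient of −1.49 ± 0.05 with butyrate and −1.84 ± 0.05 with the combination. Mdm2, which encodes the ligase that degrades p53, was at −0.09 with UK5099 (adjusted p = 0.0509), −0.88 with butyrate and −1.01 with the combination, and Trp53inp1 at −1.12 with the combination. Beside these, Cdkn1a was at 0.15, −0.62 and −0.29.

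**Figure D5:**
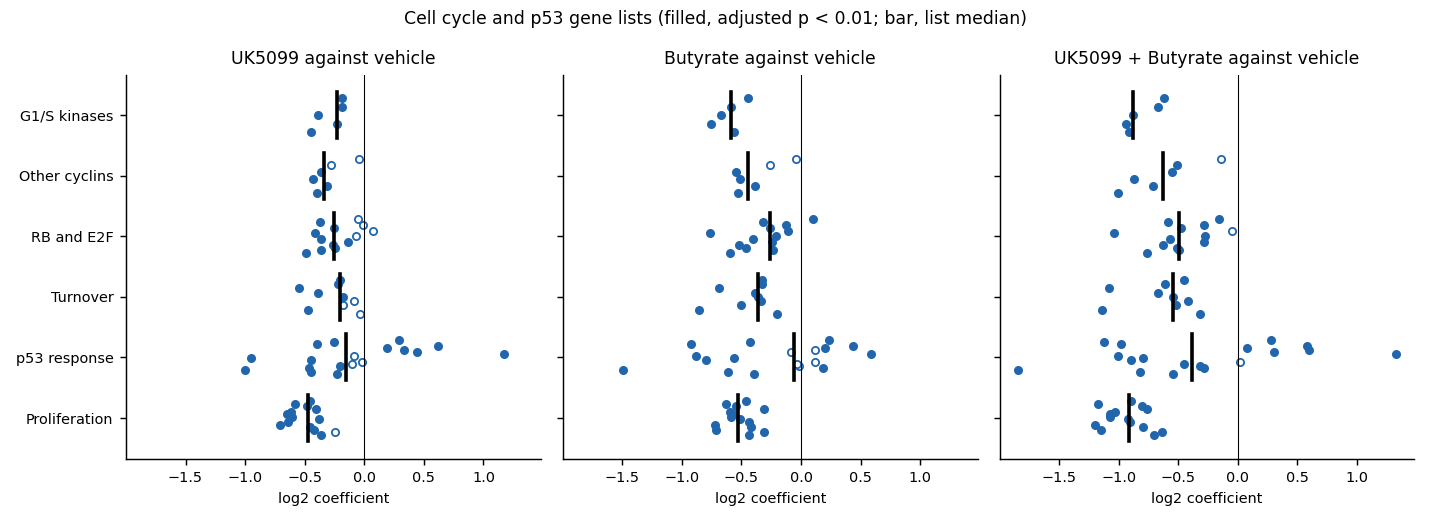
Log2 coefficients (horizontal axis) of the genes of 6 lists (vertical axis) for UK5099, butyrate and the combination against vehicle on the deposited scale, with filled points at adjusted p under 0.01, open points otherwise and a bar at each list's median. The G1/S kinases (a list that also holds Cdk7 and Cdk1) and proliferation markers lie below 0 throughout, with medians of −0.88 and −0.91 in the combination. The p53 response genes spread from −1.84 to 1.32.

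Genes with the most similar profile were ranked by Pearson's r over the 12 samples among 10100 protein-coding genes averaging 1 TPM or more, as a description in which all points share the 4 group means. Cdkn1a was most like Pttg1ip and Tuba4a (r of 0.996 for both), and Cdkn1b most like Prpf4b and Bdp1 (0.998 for both). Ccnd1 was most like B4galt6 and Hnrnpu (0.999 for both), and Ccnd2 most like Fos (0.994), an immediate-early transcription factor, and Hexim1 (0.992). Fos had means of 178 TPM in vehicle, 127 TPM with UK5099, 362 TPM with butyrate and 266 TPM with the combination. Cdkn1c (Cldn6, 0.925, and Hspb8, 0.917) and Cdkn2d (Mpp7, 0.946, and Atp11b, 0.918) had less similar nearest genes. For Cdkn2c these were Heca (0.991) and Hmgcs1 (0.988), and for Ccnd3 Chd1l (0.982) and Tlr2 (0.980).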

How the data were processed

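RNA was sequenced from 12 libraries. Per the labels, libraries were made after rRNA depletion and mRNA enrichment with a strand-marking kit, and the submitters' processing notes name GRCm39, Partek and STAR 2.7.9a, whereas the study's methods name another kit, build and RSEM, so how strand was used in counting is not settled here. The authors deposited TPM values per gene, made with a listed length that equals the genomic span (stop minus start) in 100% of genes. Values at low abundance are multiples of 1 fragment, from which depth and fragments were recovered; 75.4% to 76.7% of low coding values were whole to within 0.02. All 24674 genes and 12 samples were fitted with limma 3.58.1 (R 4.3.3) on log2(TPM + 1), a pseudocount of 1, as 2 factors with their interaction and 7 contrasts, with Benjamini-Hochberg adjustment per contrast. The fit was tested on simulated data. The 6 scalings are the deposited TPM, median of ratios, quantile, coding genes rescaled, exonic length (GENCODE M21) and voom on fragments. Named genes are all members, up to 4 most changed called genes per list, 9 fixed partners, the 2 most similar genes (those of Cdkn2b are not reported here) and overlapping genes. Replicate pairs all differed beyond counting noise. Members and lists were chosen with earlier results of these data known.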

Additional observations from a re-analysis of the deposited data

Results flagged for a closer look

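For 4 members the effect of UK5099 differed between organoids with and without butyrate by the interaction test in limma. The interaction terms on the log2 scale were 0.96 for Cdkn1c (adjusted p = 0.00429), 0.34 for Cdkn2a (adjusted p = 0.000126), 0.77 for Cdkn2b (adjusted p = 0.000707) and 0.20 for Ccnd1 (adjusted p = 0.00152). UK5099 lowered Cdkn2b in the absence of butyrate (−0.77) and gave 0.01 in its presence, while Cdkn2a was lowered both without butyrate (−0.77) and with it (−0.43). The pseudocount of 1 shrinks the Cdkn2a values. With voom, UK5099 gave −2.99 for Cdkn2a without butyrate and −0.93 with it, against −0.65 and 0.16 for Cdkn2b. Groups of 3 samples were too small for a test of single outlying samples. The first UK5099 and first combination samples did stand apart from their groups, as described above.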

How the results depend on the processing

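Of 10 members, 9, 8, 9, 7, 6, 6 and 4 passed in the comparisons, taken in the order UK5099, butyrate and both together against vehicle, the combination against butyrate and against UK5099, butyrate against UK5099, and the interaction. These counts became 6 for UK5099 with only the 2 groups compared, 6 for the combination after quantile normalisation, 9 for the combination against UK5099 with voom, 4 for butyrate against UK5099 among genes averaging 1 TPM or more (which leaves 9 members), and, for the interaction, 7 at an adjusted p limit of 0.05 and 6 with voom. Beyond a coefficient of 1 the counts were 0, 2, 2, 0, 1, 1 and 0. A pseudocount of 0.01 gave 1, 3, 3, 1, 2, 2 and 2, and 0.1 gave 1 for UK5099, 3 for butyrate, and 2 in each of the combination against UK5099, butyrate against UK5099 and the interaction. Butyrate and the combination had 1 each with median of ratios, exonic length and voom, and butyrate had 1 with quantile normalisation and with coding genes rescaled. UK5099 had 1 with coding genes rescaled, exonic length and voom. Butyrate against UK5099 had 2 in those 3 settings, the combination against UK5099 had 2 with exonic length and voom, and the interaction had 1 with coding genes rescaled and exonic length and 2 with voom. Leaving out 1 sample gave 6 to 9, 6 to 8, 8 to 9, 6 to 7, 6 to 7, 5 to 6 and 3 to 4 members passed, and 0, 2 to 3, 1 to 2, 0, 1, 1 and 0 to 1 beyond a coefficient of 1, with the extremes at 6 for UK5099 and 1 for the combination without Vehicle replicate 3, 3 for butyrate without Butyrate replicate 2, and 1 for the interaction without UK5099 replicate 2 or the first combination sample. Leaving out the first UK5099 and first combination samples together, chosen after the values were seen, gave 8, 8, 8, 6, 6, 6 and 3.

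Directions turned under median of ratios, quantile normalisation and voom, in that order, for Cdkn2c with butyrate (0.0784, 0.0754 and 0.0495), Cdkn1a with the combination (0.21, 0.0468 and 0.17), Ccnd3 with the combination (0.15, 0.0509 and 0.18), Ccnd3 between the combination and butyrate (0.0220, 0.0037 and 0.0320) and Cdkn2d between the combination and UK5099 (0.26, 0.27 and 0.24). With coding genes rescaled placed after quantile normalisation, Ccnd3 gave 0.13, 0.0472, 0.0126 and 0.14 with butyrate and 0.23, 0.14, 0.16 and 0.30 between the combination and UK5099. Cdkn1b with UK5099 turned to 0.0122 with median of ratios and 0.00804 with voom. Which scaling is right was not tested. No other alternative turned a passed direction.

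Same-numbered samples correlated at −0.107 to 0.029 in their deviations from group means, so no pairing by number was seen. Such correlations cannot tell whether same-numbered samples shared an animal or culture. A replicate block gave 8, 8, 8, 6, 6, 5 and 4 members passed, with adjusted p of 0.0115 for Cdkn1a with UK5099, 0.0215 for Cdkn2d with the combination, and, for Ccnd3, 0.0106 between the combination and butyrate and 0.0174 between butyrate and UK5099. At 14 to 190 fragments, Cdkn2a is the member that depth limits most.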
